A study of Homo sapiens with 4 samples.

Results

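The 10 genes described here belong to chemokine signalling and the NF-κB response, and were followed in A549 cells in which the m6A reader YTHDF2 had been knocked down. They were the chemokines CXCL1, CXCL2, CXCL5, CXCL8 and CCL2, the receptor adaptor MYD88, the NF-κB subunits NFKB1 and RELA, and the NF-κB inhibitors NFKBIA and TNFAIP3. All 10 symbols were found among the 28283 genes of the expression table. The genes were selected with their RNA levels and peaks in these libraries known, so the values below describe the libraries and were not tested.

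A549 is an established human lung adenocarcinoma line. The control cells (shNC) carried the pLKO.1 vector and the knockdown cells (shY2-2) a stable lentiviral shRNA against YTHDF2, and both were selected with puromycin. From each condition 1 library was made of poly(A) RNA fragments (input) and 1 of the fragments that an antibody to m6A pulled down (IP), 4 libraries in all. A single shRNA line stood for the knockdown, and with no replicates a difference cannot be set against the spread between cultures.

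Chemokines are small secreted proteins that attract leukocytes. In epithelial cells, ligands such as interleukin 1 or bacterial products act through receptors that recruit MYD88, a kinase complex then marks the inhibitor encoded by NFKBIA for degradation, and dimers such as p50 (from NFKB1) and p65 (RELA) enter the nucleus and switch on genes that include the chemokines and their own inhibitors NFKBIA and TNFAIP3. Chemokine mRNAs are short-lived, in part through AU-rich elements in their 3′ UTRs, and YTHDF2 is known to bring m6A-bearing mRNAs to decay.

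The targeted gene YTHDF2 had an FPKM (fragments scaled to transcript length and library size) of 3.56 in shNC and 1.02 in shY2-2. Its log2 ratio, shY2-2 over shNC after adding 1 to both FPKM values, was -1.18. All log2 ratios below are on this scale, which understates the difference of genes with low FPKM. FPKM values of genes with 1 transcript fell in steps, and 1 fragment on 1 kb of transcript was worth 0.0484 FPKM in shNC and 0.0388 in shY2-2, so the shY2-2 input was 1.25 times as deep. Genes were kept where the FPKM reached 1 in either input, which left 12268, and their median log2 ratio was 0.00. The cells carried the RNA of epithelial markers, and KRT8 stood at an FPKM of 523 and 322 in shNC and shY2-2. All 6 epithelial markers were lower in shY2-2 (summed FPKM 981 and 643), and their part in the results below was not tested. Of the 7 alveolar type II markers, ABCA3 alone reached an FPKM of 1 in either library, SFTPC stood at 0.0303 and 0.067, and 3 were not listed. The leukocyte markers PTPRC and CD3E did not exceed an FPKM of 0.1, although CD68 (12.2 and 10.2) and CD14 (3.56 and 2.97) were present. The summed FPKM of the 6 fibroblast markers was 2.96 and 1.90, and no endothelial marker exceeded 0.0869.

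Every one of the 10 genes had a lower FPKM in shY2-2 than in shNC, by very unequal amounts, and for CXCL2 and NFKBIA the difference lay within counting error. In bulk RNA, less RNA per cell and fewer cells that express a gene cannot be told apart. Of them 4, CXCL5, MYD88, CCL2 and CXCL8, were lower by more than a log2 ratio of 1, and none was higher by that much. Across all genes kept, 2.14% were lower and 0.986% higher past the same limit. These percentages stand beside the count as a background, and nothing was read from the comparison, since the genes were selected on this contrast. The median log2 ratio of the 10 genes was -0.74. The gene just past the limit was CXCL8 (-1.07) and the one just short of it was CXCL1 (-0.93).

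**Figure D1:**
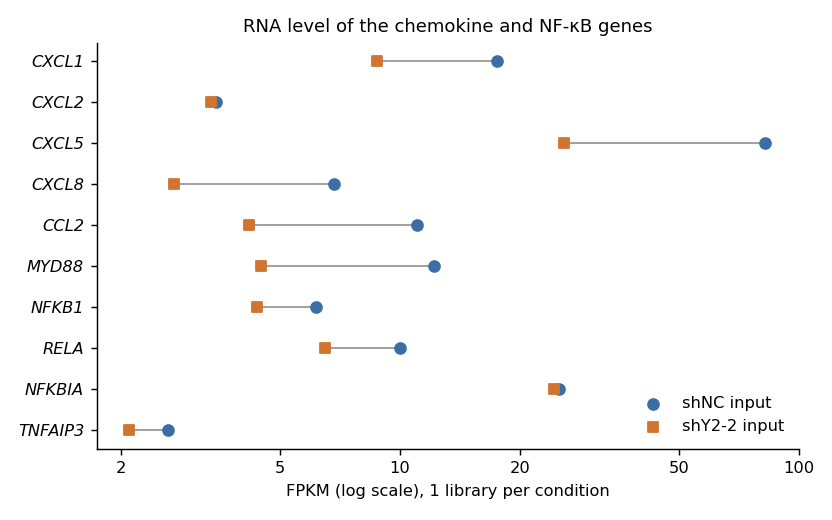
FPKM of each gene in the shNC input (circles) and the shY2-2 input (squares) on a log axis, with 1 library per condition and no error bars. Every square lies to the left of its circle, widely for CXCL5 (82.1 and 25.8) and barely for CXCL2 (3.45 and 3.37) and NFKBIA (25.0 and 24.3).

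The chemokines came first. CXCL5, a neutrophil attractant that binds CXCR2, was the most abundant of the 10, with an FPKM of 82.1 in shNC and 25.8 in shY2-2. It was 68.6% lower, a log2 ratio of -1.63, and it ranked 35 from the lowest of the 12268 genes kept. These FPKM values correspond to about 4133 and 1618 fragments. The 95% interval of the log2 ratio without added FPKM was -1.76 to -1.59 from counting error alone, which leaves out variation between cultures.

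CXCL8, or interleukin 8, which binds CXCR1 and CXCR2, had an FPKM of 6.81 in shNC and 2.72 in shY2-2 (about 231 and 115 fragments). Its log2 ratio was -1.07 and lies near the limit: the counting interval of the ratio without added FPKM was -1.66 to -0.996, which crosses it. CCL2, the monocyte attractant that binds CCR2, had an FPKM of 11 in shNC and 4.19 in shY2-2, a log2 ratio of -1.21, from about 168 and 80 fragments. The counting interval of its ratio without added FPKM, -1.79 to -0.996, crosses the limit as well. CCL2 belongs to the CC family and lies apart from the others at chr17:34255218-34257203 (+ strand), and its ratio stood between those of CXCL5 and CXCL8.

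CXCL1 and CXCL2 are near-identical neutrophil attractants, and they parted. CXCL1 had an FPKM of 17.5 in shNC and 8.74 in shY2-2, a log2 ratio of -0.93. CXCL2 had an FPKM of 3.45 in shNC and 3.37 in shY2-2, a log2 ratio of -0.03. The counting intervals of the ratios without added FPKM were -1.23 to -0.78 for CXCL1 and -0.48 to 0.40 for CXCL2 and did not overlap. The coding sequences of CXCL1 and CXCL2 were 93.5% identical, with a longest shared run of 77 nt, and CXCL3, which is not among the 10, was 94.4% identical to CXCL2 with a run of 97 nt. These runs are shorter than the reads described in the paper's methods, so a full read also covers differing bases. How reads of such similar copies were assigned was not tested, and the split of FPKM among CXCL1, CXCL2 and CXCL3 may be uncertain. CXCL3 had an FPKM of 3.67 in shNC and 1.84 in shY2-2, a log2 ratio of -0.72. CXCL5 and CXCL8 were less exposed to this: CXCL5 shared 61.5% of its coding sequence with CXCL1, and its closest relative CXCL6 (87.5%) was listed at 0 in shNC and 0.0531 in shY2-2.

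Most of the chemokines are neighbours. CXCL8, CXCL1, CXCL5 and CXCL2 lie, in this order, within 359 kb of chromosome 4 (chr4:73740506-74099293 of GRCh38), CXCL8 and CXCL1 on the + strand and CXCL5 and CXCL2 on the - strand. The interval holds 10 protein-coding genes in GENCODE release 44, of which 8 are in the expression table. Beside the 4 members and CXCL3, these were CXCL6, PF4 (0.48 in shNC and 0.0401 in shY2-2) and PPBP (0.0677 and 0). The locus thus held 5 genes with an FPKM above 1, with log2 ratios from -1.63 for CXCL5 to -0.03 for CXCL2, and the extremes lie on the same strand with CXCL3 between them.

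Among the signalling genes, MYD88, the adaptor of interleukin 1 and most Toll-like receptors (chr3:38138478-38143022, + strand), had an FPKM of 12.2 in shNC and 4.48 in shY2-2. Its log2 ratio of -1.27 came from about 671 and 308 fragments and was second only to that of CXCL5 among the 10. RELA, the transactivating p65 subunit (chr11:65653596-65663094, - strand), had an FPKM of 9.97 in shNC and 6.47 in shY2-2, a log2 ratio of -0.55. NFKB1, which encodes p105 and its product p50 (chr4:102501329-102617302, + strand), had an FPKM of 6.17 in shNC and 4.37 in shY2-2, a log2 ratio of -0.42. The counting intervals without added FPKM lay below 0 for both subunits, at -0.81 to -0.44 for RELA and -0.68 to -0.31 for NFKB1.

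Of the inhibitors, NFKBIA was level within counting error and TNFAIP3 was 20.2% lower. NFKBIA, which encodes IκBα (chr14:35401511-35404749, - strand), had an FPKM of 25.0 in shNC and 24.3 in shY2-2, a log2 ratio of -0.04. Its counting interval without added FPKM, -0.17 to 0.10, included 0 and came from about 805 and 978 fragments. TNFAIP3, the ubiquitin-editing enzyme A20 (chr6:137867188-137883312, + strand), had an FPKM of 2.61 in shNC and 2.09 in shY2-2, a log2 ratio of -0.23, and its counting interval without added FPKM, -0.58 to -0.07, lay below 0. Both inhibitors are themselves known NF-κB targets, like CXCL5, CXCL8 and CCL2, whose ratios were past the limit. No exon of another gene on the same strand overlaps an exon of any of the 10 in GENCODE release 44. Antisense exons overlap those of CXCL5 by 422 nt, RELA by 103 nt and TNFAIP3 by 95 nt, and it is not given whether fragments were counted by strand.

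**Figure D2:**
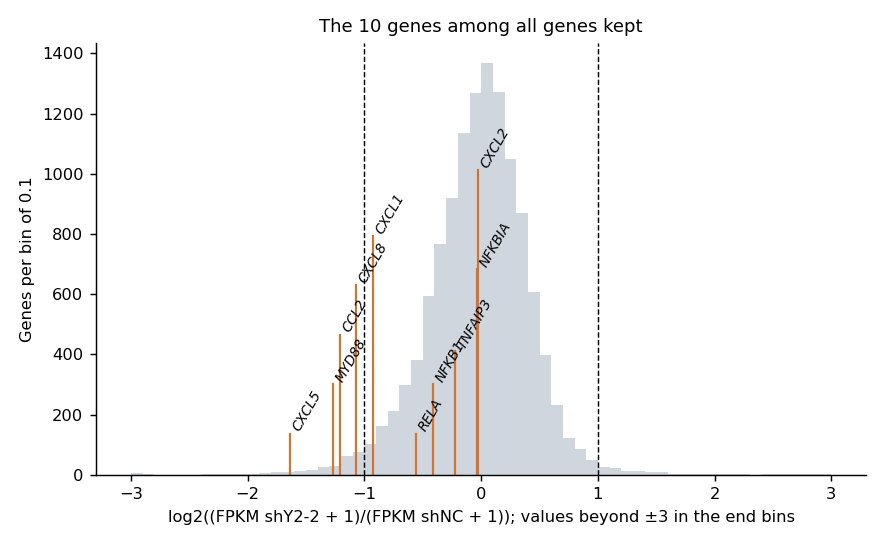
Number of genes kept per bin of 0.1 in the log2 ratio of shY2-2 over shNC (grey bars), with the 10 genes marked by orange lines whose heights only separate the labels. Dashed lines mark a log2 ratio of 1 in size, and CXCL5, MYD88, CCL2 and CXCL8 lie beyond the left one.

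The other genes of the pathway were taken from lists by role. Of the 115 genes listed, 107 were in the table and 69 were kept. Of these 69, 48 had a log2 ratio below 0 and 21 above 0, with a median of -0.27, whereas of all genes kept 6102 were below 0 and 6166 above. Past the limit, 2 were lower, none was higher, and the background was as above. The lists differed among themselves, from a median of -0.37 for the NF-κB targets to 0.07 for the IκB family.

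Of 18 further chemokine ligands, 5 were kept, and all 5 were lower in shY2-2 within the limit. They were led by CXCL3 (-0.72) and CXCL16 (-0.36), with CCL20 and CCL5 both at -0.21. Of 12 chemokine receptors, 7 were measured and none was kept, and the others, CCR2 among them, were not listed. The highest, ACKR3, a scavenging receptor, stood at 0.686 in shNC and 0.694 in shY2-2. CXCR1 and CXCR2, the receptors of CXCL8, did not exceed 0.0195. RNA of the ligands was thus present with little RNA of the receptors that were measured.

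Of 15 genes for receptors that act upstream of NF-κB, through MYD88 or through other adaptors, 6 were kept, 3 of them below 0 and 3 above. TLR6 had an FPKM of 3.62 in shNC and 1.5 in shY2-2, a log2 ratio of -0.88, and IL1R1, the signalling receptor of interleukin 1, had 8.61 and 4.74, a log2 ratio of -0.74. TNFRSF12A was at -0.51, and the TNF receptor TNFRSF1A was at 0.22 with an FPKM of 64.6 and 75.3. TLR2 and TLR4 did not exceed 0.0345. Among 19 adaptors and kinases kept, TAB3 (-0.98), TAB2 (-0.79) and TRAF1 (-0.73) had the lowest ratios and IRAK2 followed at -0.65. TAB2 and TAB3 link ubiquitin chains to the kinase TAK1. TRADD, the adaptor of the TNF receptor, had the highest ratio of the list at 0.53.

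The 3 IκB kinase subunits stood at -0.44 (CHUK), -0.33 (IKBKB) and 0.00 (IKBKG). The other NF-κB subunits were at -0.36 (NFKB2), -0.05 (REL) and 0.28 (RELB). Of the other IκB family genes, 5 were kept, with a median of 0.07, from -0.47 for NFKBIE to 0.49 for BCL3. The 8 kept partners of A20 and related deubiquitinases had a median of -0.12, with ITCH (-0.62), RNF11 (-0.46), TAX1BP1 (-0.43) and TNIP2 (-0.34) lowest. None of these genes passed the limit.

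Of 30 genes listed as known NF-κB targets, 22 were kept, 19 of them below 0, with a median of -0.37. NFKB2 and RELB, given above as subunits, are in this list as well. Past the limit were C3, the central complement component, with an FPKM of 15.1 in shNC and 2.45 in shY2-2 (log2 ratio -2.22), and LCN2, an iron-binding acute-phase protein, with 8.52 and 3.16 (-1.20). IL32 and PTGS2, the inducible cyclooxygenase, were both at -0.84. The cytokines IL6, TNF and IL1B did not exceed 0.144 in either library. The log2 ratios of NF-κB target genes were uneven from gene to gene, as they were among the 10.

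**Figure D3:**
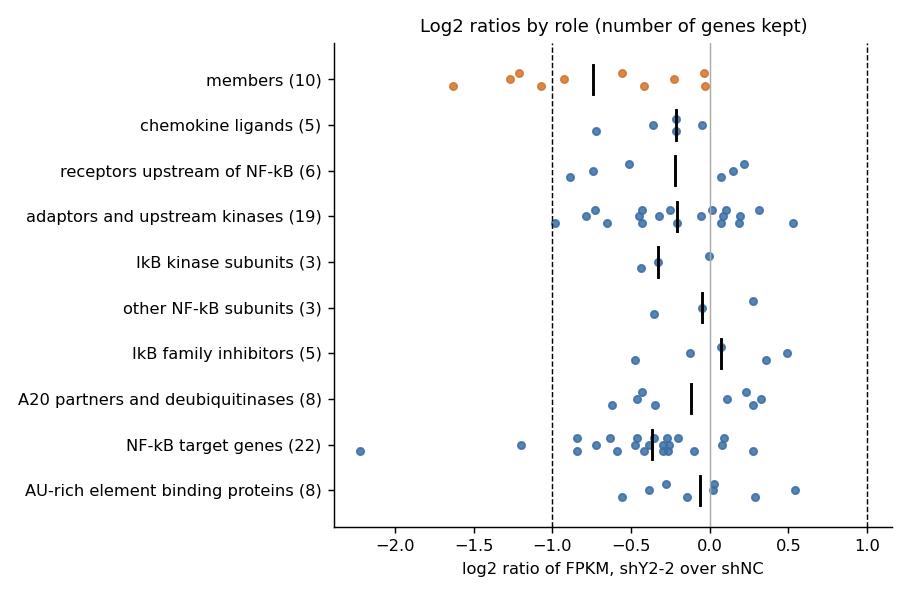
Log2 ratio of shY2-2 over shNC for the 10 genes (orange) and for the genes kept from each pathway list (blue, with their number), where black bars are medians and dashed lines mark a log2 ratio of 1 in size. The median of the 10 genes, which were selected with these ratios known, is -0.74. C3 (-2.22) and LCN2 (-1.20) are the other points past the limit. The 6 epithelial markers, not drawn, had a median of -0.65.

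The GC content of the transcripts moved with the log2 ratio over all genes. Genes kept were split into quintiles by the GC content of their canonical spliced transcript, and the medians were -0.20 in the lowest quintile, -0.06, 0.05 and 0.09 in the next ones and 0.11 in the highest. CXCL8 (32.9% GC), CXCL5 (37.1%) and CCL2 (41.0%) lie in the lowest quintile, where 3.44% of genes were lower past the limit. MYD88 (53.0%) lies in the fourth quintile, where 2.01% were, and shares it with NFKBIA (53.0%). With each ratio centred on its quintile, CXCL5 and MYD88 stayed past the limit, CCL2 stayed just past it (-1.01), CXCL8 came to -0.87 and CXCL2 to 0.03. CXCL1 (45.4%) and CXCL2 (44.7%) have almost the same GC content. The part of GC content in the differences was not tested beyond this centring.

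**Figure D4:**
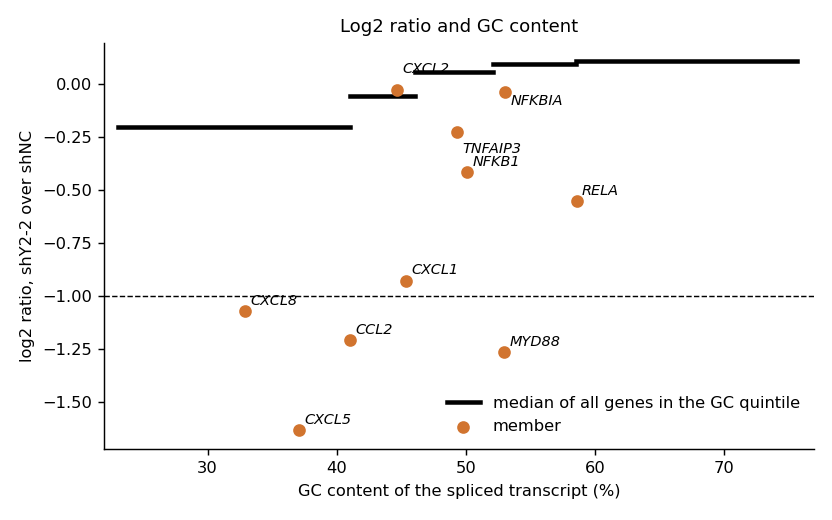
Log2 ratio of shY2-2 over shNC (vertical axis) against the GC content of the spliced transcript in percent (horizontal axis) for the 10 genes (points), with the median of all genes kept in each quintile of GC content (black bars). The medians run from -0.20 to 0.11, and CXCL5, CCL2 and MYD88 lie more than 1 below the bar of their quintile.

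The m6A peaks were then compared. All 10 genes had a peak in the shNC list, where 81.2% of genes kept had one. In the shY2-2 list 7 of 10 had a peak, against 78.4% of genes kept. The 3 without a shY2-2 peak were CXCL1, CXCL2 and CCL2, and of all genes kept with a shNC peak, 10.6% had none in shY2-2. The shNC peaks of these 3 genes had FDR values of 0.0115 for CXCL1, 0.0151 for CXCL2 and 0.00912 for the stronger of the peaks of CCL2. Of the genes whose best shNC peak had a log10 FDR from -2.5 to -1.5, 13.6% had no peak in shY2-2. The missing peaks did not go with one RNA pattern: CXCL2 was level in the input, and CXCL1 and CCL2 were lower. About 264, 97 and 80 fragments of CXCL1, CXCL2 and CCL2 were in the shY2-2 input, and the part of depth in the missing peaks was not tested.

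The 10 genes carried 17 shNC peaks and 10 shY2-2 peaks. A peak of the other list overlapped 8 of 17 (47.1%) and 8 of 10 (80.0%), against 55.9% and 65.4% of all peaks. Their median fold enrichment of IP over input was 2.04 in shNC and 1.86 in shY2-2, below the medians of 2.17 and 2.26 over all peaks. The deposited annotation placed 13 of 17 and 7 of 10 in the 3′ UTR, against 59.1% and 59.5% of all peaks. On the canonical transcripts, 11 of 17 and 7 of 10 held 3′ UTR sequence. Their strength was unequal, and an FDR of at most 0.05 held for 12 of 17 in shNC and 5 of 10 in shY2-2. Over all peaks, the share under this FDR was 56.4% in shNC and 52.1% in shY2-2.

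**Figure D5:**
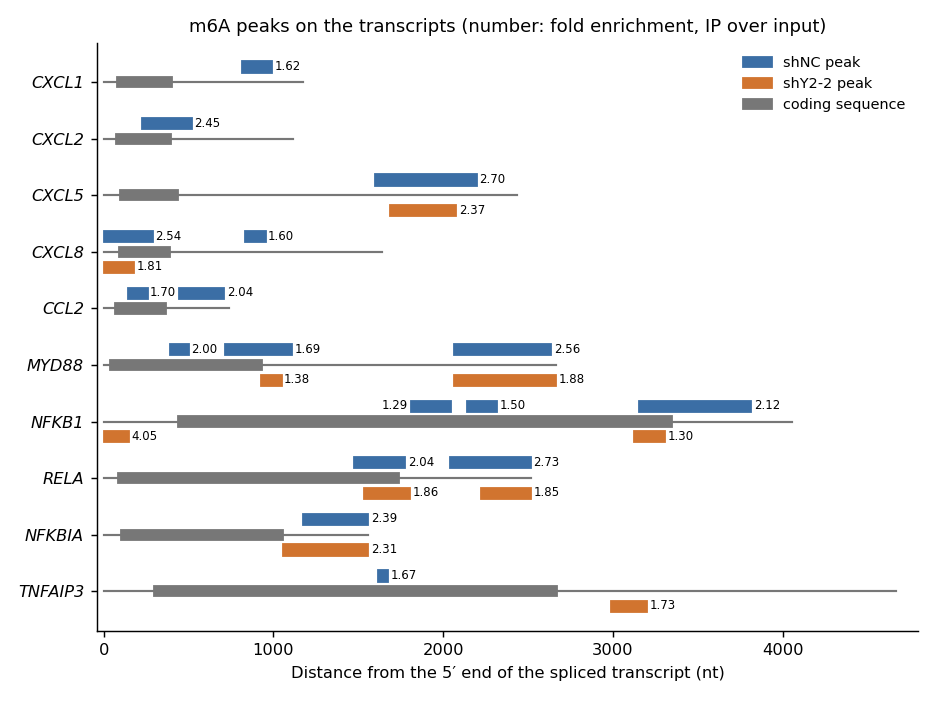
m6A peaks of shNC (blue, above) and shY2-2 (orange, below) along the canonical spliced transcript of each gene, in nucleotides from its 5′ end, with the coding sequence as a grey box and the fold enrichment as a number. CXCL1, CXCL2 and CCL2 have no orange bar, and parts of peaks outside the canonical transcript are not drawn.

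CXCL5 had the peak with the lowest FDR, although a RELA peak in shNC had a slightly higher fold enrichment (2.73). Its shNC peak covered 598 nt of the 3′ UTR (chr4:73995881-73996478), with a fold enrichment of 2.70 and an FDR of 3.16e-44. The shY2-2 peak lay wholly within it (chr4:73996000-73996388, 389 nt), with a fold enrichment of 2.37 and an FDR of 5.01e-12. The gene with the lowest ratio of the 10 thus had a peak at the same place in both lists, with a similar fold enrichment and a higher FDR in shY2-2.

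NFKBIA, whose RNA was level, also kept its peak. In shNC the peak covered 386 nt at the 3′ end (chr14:35401511-35401896, fold enrichment 2.39, FDR 2.51e-12). In shY2-2 it covered all of this and reached the stop codon (chr14:35401511-35402015, 505 nt, fold enrichment 2.31, FDR 2.82e-10). CXCL5 and NFKBIA had peaks in both lists with fold enrichments from 2.31 to 2.70, and log2 ratios of -1.63 and -0.04. The part of the peaks in the RNA differences was not tested.

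MYD88 had 3 shNC peaks and 2 shY2-2 peaks. The last, in the 3′ UTR (chr3:38142422-38142992), had a fold enrichment of 2.56 in shNC and 1.88 in shY2-2, where it was 601 nt long. The peak across the stop codon had a fold enrichment of 1.69 and 1.38, and the peak in exon 2 (2.00, FDR 0.0776) was listed in shNC alone. RELA had 2 peaks in each list, both met: the one across the stop codon stood at 2.04 and 1.86 and the one at the 3′ end at 2.73 and 1.85. NFKB1 met at 1 place, across exons 23 and 24, with 2.12 in shNC and 1.30 in shY2-2, the latter with an FDR of 0.418. The highest fold enrichment of these peaks, 4.05, was a 5′ UTR peak of NFKB1 in shY2-2 with an FDR of 0.353. TNFAIP3 had 1 peak in each list, at different places, both with an FDR above 0.2.

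CXCL8 was the one chemokine with a peak across the start codon. That peak had a fold enrichment of 2.54 in shNC (FDR 0.0012) and 1.81 in shY2-2 (FDR 0.0759), and a second shNC peak in the 3′ UTR (1.6, FDR 0.175) was not met. Some locations depend on the transcript chosen. Of the CXCL8, CXCL2 and first CCL2 peaks in shNC, 160, 184 and 212 nt lie outside the canonical transcript, and the shNC peak of TNFAIP3, placed in the 3′ UTR by the deposited annotation, lies in coding exon 7 of the canonical one. Fold enrichment was lower in shY2-2 in each of the 8 overlapping pairs, and in 55.4% of the 17354 overlapping pairs of all genes.

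The sequence GGAC, a common core of m6A sites, was searched on the transcript strand. In shNC 13 of the 17 peaks held it, against 61.0% of all shNC peaks, and in shY2-2 7 of the 10 did, against 60.6%. The peaks differed in length, with a median of 327 nt in shNC against 270 nt over all peaks. In shY2-2 the medians were 240 nt and 270 nt, and the part of length in these shares was not tested. For the peaks above, the GGAC nearest the middle is shown in capitals, within the stretch common to both lists or, for CXCL1 and CXCL2, in the shNC peak. No GGAC was found in the stretch searched for CCL2, NFKB1 and TNFAIP3. A match marks letters and not a measured site.
CXCL5, 3′ UTR, chr4:73996254-73996277, - strand: agtcctggtgGGACacactggggt
NFKBIA, 3′ UTR, chr14:35401716-35401739, - strand: tttcatggaaGGACcacattttat
MYD88, 3′ UTR, chr3:38142691-38142714, + strand: acagaccctaGGACcctaaatcca
RELA, 3′ UTR, chr11:65653761-65653784, - strand: gtttggtctgGGACttccttgctc
CXCL8, 5′ UTR, chr4:73740596-73740619, + strand: caagcttctaGGACaagagccagg
CXCL1, 3′ UTR, chr4:73871097-73871120, + strand: aatatcccttGGACattttatgtc
CXCL2, coding sequence, chr4:74098814-74098837, - strand: gaagtcccccGGACcccactgcgc
The CXCL1 and CXCL2 stretches come from different regions of the mRNA, so these near-identical genes carried their shNC peaks at different places.

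AU-rich elements were counted next as ATTTA in the 3′ UTR on the transcript strand. CXCL2 had 10 in 716 nt, 14 per kb, a density above that of 99.6% of the 10651 genes with a 3′ UTR. CXCL5 had 11 in 1995 nt, CXCL8 9 in 1252 nt and CXCL1 6 in 772 nt. CCL2 had 1, MYD88, NFKB1 and NFKBIA had 3 each, TNFAIP3 had 5 and RELA had none. Over all genes, 72.5% had at least 1. The densest 30 nt of the CXC chemokines show the overlapping copies, in capitals.
CXCL2, chr4:74097590-74097619, - strand: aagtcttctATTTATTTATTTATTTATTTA
CXCL1, chr4:73870665-73870694, + strand: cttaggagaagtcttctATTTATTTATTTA
CXCL8, chr4:73743108-73743137, + strand: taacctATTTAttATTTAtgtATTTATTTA
CXCL5, chr4:73996688-73996717, - strand: caaacaatttgaatataaATTTAtcATTTA
These stretches hold 5, 3, 4 and 2 copies, and no m6A peak of either list lies over any of them. Other copies do lie in peaks. The 3′ UTR peaks of CXCL1 and CXCL5 in shNC hold 1 ATTTA each, and the last MYD88 peak holds 3 in each list. CXCL2, with the densest elements, had the log2 ratio nearest 0 of the 10, close to that of NFKBIA. The densities of CXCL1, CXCL8, NFKBIA and CXCL5 were above those of 97.7%, 97.0%, 94.6% and 93.1% of genes. Their log2 ratios were -0.93, -1.07, -0.04 and -1.63, and the part of these elements in the RNA differences was not tested. The longer TATTTAT, which contains ATTTA, was present in 35.0% of genes, whose median log2 ratio was -0.10, against 0.04 for the others. The 8 kept genes for AU-rich element binding proteins had a median of -0.06, from TIA1 (-0.56) and ZFP36L1 (-0.38) to ELAVL1 (0.29) and KHSRP (0.54), and none passed the limit.

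The promoters were read for NF-κB motifs, since the chemokines and both inhibitors are known targets. RefSeq gives windows of 300 bases around the start for 9 of the 10 genes, with 2 windows each for NFKB1 and RELA. CCL2 had no window and was not searched. The kappa-B consensus and the shorter GGNNNTTCC, which can overlap it, were searched on both strands. The consensus was found in 11.3% of 35116 windows, GGNNNTTCC in 20.1% and either in 25.6%. Counted by gene over the 8641 genes kept with a window, the shares were 17.2%, 29.2% and 36.5%. At least 1 motif was in the windows of CXCL1, CXCL2, CXCL5, CXCL8, NFKB1, NFKBIA and TNFAIP3, and no match was in those of MYD88 and RELA. A match near the start is shown in capitals for genes on both sides of the RNA contrast, on GRCh38.p14 and the gene's strand. For NFKBIA and TNFAIP3 the consensus itself reads on the opposite strand.
CXCL1, chr4:73869304-73869333: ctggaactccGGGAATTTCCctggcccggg
CXCL2, chr4:74099254-74099283: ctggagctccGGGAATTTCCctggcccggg
CXCL5, chr4:73998749-73998778: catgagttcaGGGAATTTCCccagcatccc
CXCL8, chr4:73740468-73740496: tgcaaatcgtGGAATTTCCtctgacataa
NFKB1, chr4:102501300-102501329: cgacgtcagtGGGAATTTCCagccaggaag
NFKBIA, chr14:35404811-35404840: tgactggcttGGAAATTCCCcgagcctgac
TNFAIP3, chr6:137867194-137867223: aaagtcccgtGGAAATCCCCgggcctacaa
CXCL1, CXCL2, CXCL5 and NFKB1 carry the same 10 letters at this place, and NFKBIA carries them on the opposite strand. The log2 ratios of these genes ran from -1.63 to -0.03. MYD88, with no match in its window, had the second lowest. Low ratios were seen with a match (CXCL5) and without one (MYD88), and CXCL2 and NFKBIA, both with a match, were level. A match marks letters and not measured binding, and the part of these motifs in the RNA differences was not tested.

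Peaks in the pathway lists were counted last. Of the 69 genes kept, 57 had a shNC peak and 52 a shY2-2 peak, near the 81.2% and 78.4% of all genes kept. Of the 57, 8 had no shY2-2 peak, beside 10.6% of all genes kept with a shNC peak. Listed in shNC alone were IL1R1, TRAF6, MAP3K7, IKBKE, IKBKG, ITCH, BIRC3 and ICAM1, and in shY2-2 alone CCL26, IRAK2 and BCL3. These names were given after their peaks were seen.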

How the data were processed

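Per the labels and methods, the authors aligned to GRCh38 using HISAT2 and ran StringTie on the input reads for the deposited FPKM of each gene. They called peaks with exomePeak on the IP over the input library of each condition. Peak locations are from ChIPseeker. Each deposited peak carries the authors' p-value, a log10 FDR score and a fold enrichment (IP divided by input, a linear ratio). Tool versions and the annotation release are not given in the sources used here. The peak lists hold p-values up to 0.049.

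The genes, their lists and the settings were chosen with earlier results of these data known. FPKM values are not counts, and with 1 library per condition no test was run. Fragment numbers were derived from FPKM, the spliced length of the canonical transcript and the step of 1 fragment, and are approximate because StringTie may have used other transcripts. Their 95% intervals cover counting error only. IP depths and the reads behind a peak are unknown. No FPKM column lacked a sample.

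The genes named are the 10 members, YTHDF2, in each list up to 4 genes with the largest log2 ratios in size and any past the limit. Genes at low levels, the cell type markers, the locus neighbours, the remaining members of short lists and genes with a peak in 1 list were added after their values were seen. Peaks were compared by overlap of exonic blocks by at least 1 bp on the same strand. Canonical transcripts came from GENCODE release 44, and GC content was known for 99.5% of genes kept. Identity was computed on coding nucleotides. Steps were tested on simulated data. Alternatives were other pseudocounts, filters, scalings and limits, and stricter peak rules. Python 3.11.15, pandas 2.3.3, NumPy 2.4.6, pysam 0.24.0, Biopython 1.88 and matplotlib 3.10.9 were used.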

Additional observations from a re-analysis of the deposited data

How the results depend on the processing

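No log2 ratio of a member past the limit changed sign. Of 50 recomputed ratios of single genes, 46 kept their direction and their side of the limit. CXCL1 passed it without a pseudocount (-1.0) and with FPKM scaled to an equal sum per library (-1.05), and CXCL8 lost it when centred on its GC quintile (-0.87), where CXCL2 turned to 0.03, a setting chosen after seeing the data. The number of members lower past the limit ran from 3 to 5. The median of all 10 ran from -0.86 to -0.74. It was -1.0 with a filter of an FPKM of at least 5, which leaves out CXCL2 and TNFAIP3. The share of all genes lower past the limit, 2.14%, was 0.926% without a filter and 4.91% with a pseudocount of 0.1. This share was 5.63% with no pseudocount, 6.01% with equal sums and 8.92% at a limit of 1.5-fold. With an FDR of at most 0.05, 9 members had a shNC and 4 a shY2-2 peak (64.8% and 56.9% of all genes kept), and 5 shNC and 5 shY2-2 peaks were met in the other list. With an FDR of at most 0.001, 4 members had a shNC and 3 a shY2-2 peak (45.6% and 40.6%). With a fold enrichment of at least 2, 8 had a shNC and 3 a shY2-2 peak (67.2% and 62.8%), and with at least 4, 0 had a shNC and 1 a shY2-2 peak (27.9% and 27.6%). These counts fall by construction, since fewer peaks are left. No paired analysis was possible because each condition has 1 input library. The depth limits the ratios of CXCL2, CCL2 and CXCL8 most, with about 80 to 231 fragments each.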
